A study of Mus musculus with 6 samples.

Results

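Total RNA of the Achilles tendon from 1 ScxHt mouse was compared with that from 1 Control mouse across all genes of the RNA-seq count table. Both mice were 4 weeks old. The ScxHt mouse (genotype ScxCre/+ Knock In:Dicer +/+) carried Cre at 1 copy of the Scx gene and had intact Dicer alleles, and the Control mouse (Dicer f/f) had floxed Dicer alleles and no Cre. The Dicer cKO mouse (ScxCre/+ Knock In:Dicer f/f), the third genotype, had both the knock-in and the floxed alleles. The knock-in drives Cre from the Scx promoter and removes the function of the copy that holds it, since mice homozygous for it were described by the study as Scx knockouts. ScxHt therefore served the study as the control for the knock-in, but it differed from Control at the Dicer locus as well as at Scx, and the strain and sex of the mice were not given in the sources used here. Of 53726 features in the table, 13462 had a mean normalized count above 50 over the 2 libraries and were analysed. With 1 library per genotype, differences between genotypes and differences between individual mice cannot be told apart, and no test or p-value is given.

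Scleraxis (Scx) is the transcription factor that marks tendon progenitors and tendon fibroblasts. Tendon fibroblasts secrete type I procollagen, which is folded in the endoplasmic reticulum (ER), trimmed outside the cell and assembled into fibrils. Small proteoglycans and other collagens bound to the fibrils set their width and spacing. At 4 weeks the mouse Achilles tendon is still growing, and its upper end is joined to muscle, so a dissected tendon can hold muscle fibres together with vessels, nerve, fat and macrophages.

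For each gene, the read counts were divided by the size factor of the library, and the ScxHt/Control ratio of these normalized counts was taken. A gene was called lower below a ratio of 0.60 and higher above the inverse of that value rounded to 2 decimals, the limits used by the study. The 95% interval of a ratio is the exact Clopper-Pearson interval of the share of reads, and it covers counting error only, not the difference between mice. The 2 libraries held 16244232 counts in Control and 15769301 in ScxHt. The median log2 ratio of the genes analysed was 0.02, and 92.3% of them lay between the 2 limits.

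In ScxHt, 408 genes were higher (3.03% of those analysed) and 634 were lower (4.71%). For 73 genes (0.542%) the whole interval was past the upper limit, and for 267 (1.98%) it was past the lower. It lay entirely over 1 for 26.4% of all genes and under 1 for 23.8%, which is the background for the counts given below. Ratios above 3 were found for 15 genes, and 36 genes were below the inverse of 3. Calls were most frequent among genes with few reads: between 50 and 100 normalized counts 8.24% were higher and 8.53% lower, and between 500 and 1000 these shares were 0.822% and 2.55%. Among the 329 genes above 5000 normalized counts, 1.52% were higher and 10.3% lower.

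**Figure D1:**
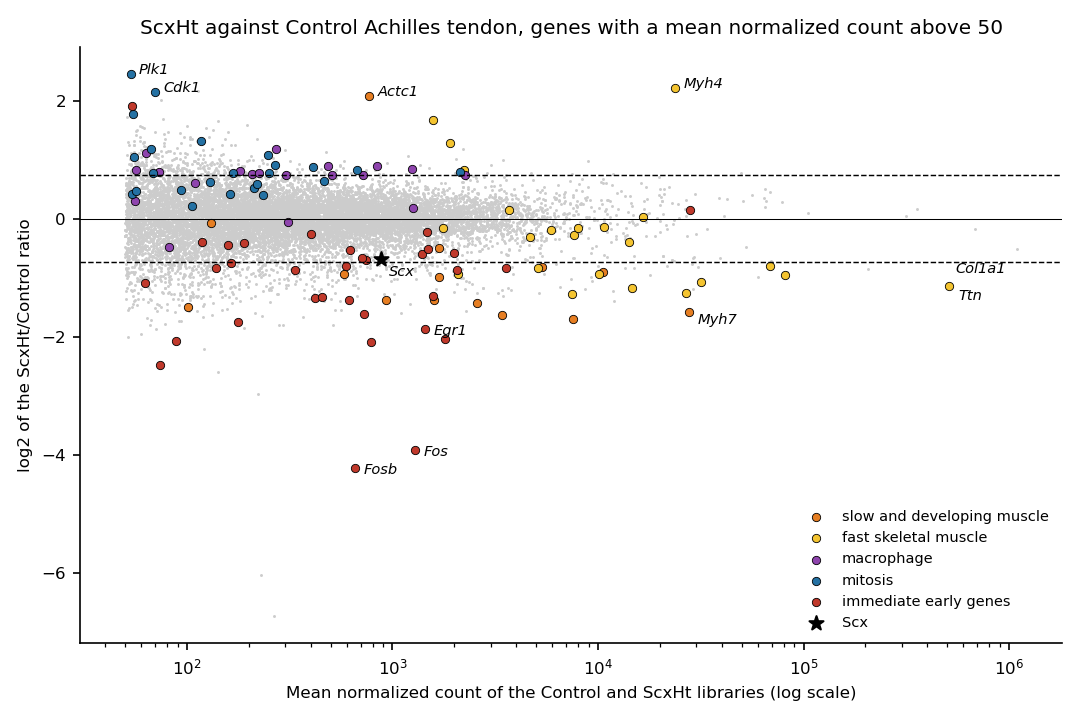
The mean normalized count of the 2 libraries (horizontal axis, log scale) is plotted against the log2 ScxHt/Control ratio for the 13462 genes analysed (grey), with the members of 5 gene lists and Scx marked and dashed lines at the limits for higher and lower genes. Fosb and Fos lie far below the other marked genes, and Plk1, Myh4, Cdk1 and Actc1 lie at the top.

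Scx itself, on chromosome 15 from 76457452 to 76459458 (GRCm38), had 1055 reads in Control and 686 in ScxHt, a ratio of 0.623 (95% counting interval 0.565 to 0.686). In Dicer cKO, which carries the same knock-in allele, Scx had 371 reads, so that the targeted gene was below its Control level in both libraries with the knock-in. Whether the counted exons are intact in the knock-in allele was not given in the sources used here. Bop1, a ribosome biogenesis gene on the opposite strand that spans Scx, had 154 reads in Control and 299 in ScxHt, a ratio of 1.86 (1.53 to 2.27), and 267 reads in Dicer cKO. None of the 2007 exonic bases of Scx is exonic in Bop1, but the strand setting of the read counting was not given in the sources used here. Dicer1, which makes the miRNA-processing enzyme, had 1919 and 2025 reads, a ratio of 1.01 (0.949 to 1.08).

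Of the other tendon transcription factors, Mkx (Mohawk) had 2094 and 2492 reads, a ratio of 1.14 (1.08 to 1.21). Tnmd, the membrane glycoprotein of mature tendon fibroblasts and a known target of Scx, had 10586 reads in Control and 15431 in ScxHt, a ratio of 1.40 (1.36 to 1.43). Scx was thus below its Control level while Tnmd and Mkx were above theirs. Egr1, which is a tendon factor and also an immediate early gene, had 2217 and 635 reads, a ratio of 0.274 (0.251 to 0.300). It was the only one of the 7 genes analysed in the list of tendon factors and Tnmd that passed either limit. Eya2, a cofactor of homeodomain factors, had 114 and 72 reads, a ratio of 0.605 (0.444 to 0.820), and its relative Eya1 had a ratio of 1.07.

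The fibrillar collagens differed in direction among themselves. Col1a1, the most abundant gene of both libraries, had 1261322 reads in Control and 925996 in ScxHt, a ratio of 0.703 (0.701 to 0.705). Its partner chain Col1a2 had 708695 and 658387 reads, a ratio of 0.890 (0.887 to 0.893). Both chains of type I collagen were therefore below their Control level, Col1a1 more than Col1a2. Per length (RPKM), the Col1a1 level was 3.37 times that of Col1a2 in Control, 2.66 times in ScxHt and 3.18 times in Dicer cKO.

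The chains that accompany type I collagen in thin and growing fibrils lay on the other side. Col3a1 had 56697 and 81063 reads, a ratio of 1.37 (1.35 to 1.38). Col5a2, a chain of the type V collagen that starts fibrils, had 17432 and 24570 reads, a ratio of 1.35 (1.32 to 1.38). Col5a1, Col5a3 and Col11a1 had ratios of 1.21, 1.24 and 1.20, and Col11a2 one of 0.690 (0.667 to 0.715). Among all 11 fibrillar collagen genes analysed none was past a limit, 5 intervals lay above 1 and 5 below, and the median log2 ratio was -0.09, or 0.02 with total counts in place of size factors. Per length, the Col3a1 level was 0.0301 of that of Col1a1 in Control and 0.0585 in ScxHt, against 0.0351 in Dicer cKO.

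Collagens that coat or link fibrils were on the high side without passing the limit. The 3 main chains of type VI collagen, which forms beaded filaments around the cells, had the same ratio to 3 digits, 1.24 for Col6a1, Col6a2 and Col6a3. Col12a1 had 33391 and 44523 reads, a ratio of 1.28 (1.26 to 1.29), and Col14a1, which binds the fibril surface, had 2687 and 4452 reads, a ratio of 1.59. All 10 genes of this list had a ratio above 1, 8 of them with the whole interval above 1, and the median log2 ratio was 0.31.

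Among the small leucine-rich proteoglycans, biglycan was the 1 gene past the limit. Bgn had 35556 reads in Control and 63782 in ScxHt, a ratio of 1.72 (1.70 to 1.74). Keratocan (Kera) followed, with 5539 and 9065 reads and a ratio of 1.57 (1.52 to 1.62), and osteoglycin (Ogn) with a ratio of 1.47 (1.41 to 1.52). The most abundant member, fibromodulin (Fmod), had 99254 and 111544 reads, a ratio of 1.08 (1.07 to 1.09), and decorin (Dcn) had 57347 and 73864, a ratio of 1.23 (1.22 to 1.25). Prelp, at 0.896, was the 1 member with its interval below 1. Of 12 members analysed, 9 had their interval above 1, and the median log2 ratio was 0.25.

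Other secreted tendon proteins were also above their Control level for the most part. Periostin (Postn), a matricellular protein of growing and loaded connective tissue, had 5838 and 12125 reads, a ratio of 1.99 (1.93 to 2.05). Osteopontin (Spp1) had 5412 and 9579 reads, a ratio of 1.70 (1.64 to 1.75). Fibronectin (Fn1) had a ratio of 1.42 and thrombospondin 4 (Thbs4) one of 1.33, with 47181 reads in Control and 65404 in ScxHt. Sparc, which binds collagen and was among the 4 most abundant genes of both libraries, had 327276 and 385347 reads, a ratio of 1.13. Of 16 members, 14 had an interval above 1 and 2 below, namely Tnxb and Cilp2 with ratios of 0.762 and 0.888, and the median log2 ratio was 0.41.

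**Figure D2:**
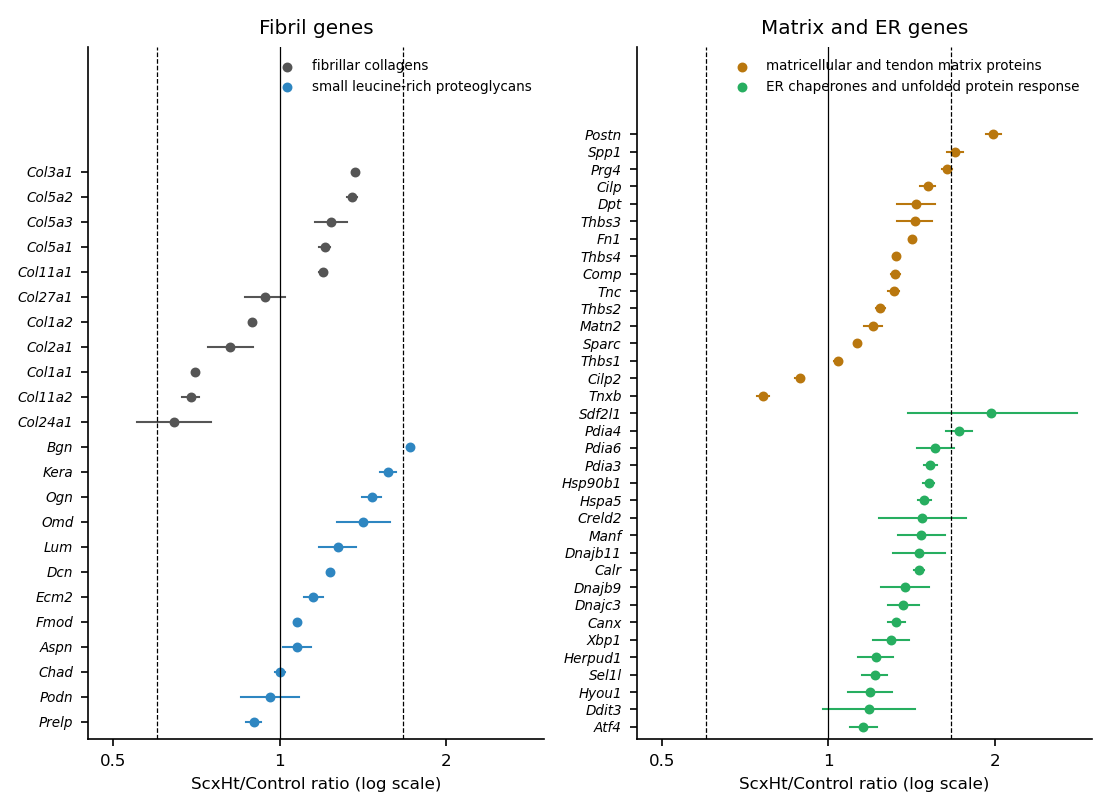
ScxHt/Control ratios (horizontal axis, log scale) with their 95% counting intervals (lines) for the fibrillar collagens and small leucine-rich proteoglycans (left) and for matricellular proteins and ER chaperones (right), with dashed lines at the limits for higher and lower genes. The type I chains Col1a1 and Col1a2 lie below 1, whereas all 19 ER genes lie above 1.

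The genes that fold these proteins were above their Control level together. The ER chaperones keep secreted proteins soluble and form their disulfide bonds, and cells raise them when more protein enters the ER. Hspa5 (BiP), the main chaperone of the ER, had 9184 reads in Control and 14309 in ScxHt, a ratio of 1.49 (1.45 to 1.53). Hsp90b1 had 12590 and 19986 reads, a ratio of 1.52 (1.49 to 1.55), and calreticulin (Calr) had 17550 and 26748, a ratio of 1.46 (1.43 to 1.49). The ratios of these 3 abundant genes lay close together, between 1.46 and 1.52. The disulfide isomerase Pdia4 was past the limit, with 2078 and 3735 reads and a ratio of 1.72 (1.63 to 1.82), as was Sdf2l1 at 50 and 103 reads. All 19 members analysed had a ratio above 1, 18 of them with the whole interval above 1, and the median log2 ratio was 0.55.

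In Dicer cKO, scaled to the same 3-library size factors, Hspa5 had 8961 normalized counts against 9153 in Control and 13506 in ScxHt, so that ScxHt stood apart from both other libraries. Enzymes of collagen folding gave a smaller shift. P4hb, the disulfide isomerase subunit of prolyl 4-hydroxylase, had 8616 and 15271 reads, a ratio of 1.70 (1.65 to 1.74), and the collagen chaperone Serpinh1 had 13662 and 20749, a ratio of 1.46 (1.42 to 1.49). The lysyl oxidase Loxl2 and the procollagen peptidase Adamts2 had ratios of 0.948 and 0.940. Of the 21 genes of collagen modification analysed, 13 had an interval above 1 and 4 below, and the median log2 ratio was 0.23.

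The promoters of the 3 abundant chaperones are shown because each holds the ER stress response element within 200 bases before the start site. They were taken from RefSeq (GRCm38.p6), 5′ to 3′ on the strand of the gene, for Hspa5 at chr2:34771890-34772089 (+), Hsp90b1 at chr10:86705445-86705644 (-) and Calr at chr8:84846932-84847131 (-), with the element in capitals.
Hspa5: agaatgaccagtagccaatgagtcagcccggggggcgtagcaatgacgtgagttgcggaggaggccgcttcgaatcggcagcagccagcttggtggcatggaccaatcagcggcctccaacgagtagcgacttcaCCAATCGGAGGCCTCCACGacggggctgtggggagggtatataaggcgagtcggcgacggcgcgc
Hsp90b1: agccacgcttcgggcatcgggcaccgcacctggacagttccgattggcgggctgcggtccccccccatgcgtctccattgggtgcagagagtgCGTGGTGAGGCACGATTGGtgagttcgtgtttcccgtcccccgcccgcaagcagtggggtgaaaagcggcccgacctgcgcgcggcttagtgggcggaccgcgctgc
Calr: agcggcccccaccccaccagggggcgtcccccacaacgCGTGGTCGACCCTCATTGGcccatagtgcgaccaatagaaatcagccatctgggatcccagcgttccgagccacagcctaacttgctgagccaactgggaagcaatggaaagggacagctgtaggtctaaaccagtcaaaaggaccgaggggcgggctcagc
The element was searched on both strands as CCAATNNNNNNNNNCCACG. It occurred in the windows (250 bases before to 50 after the start) of 7 of the 17 listed ER genes with a promoter in the table, in 0.119% of all 32851 windows and in 0.171% of the 8760 windows matched to genes analysed. The 7 were Calr, Canx, Creld2, Dnajc3, Hsp90b1, Hspa5 and Pdia6. Its match is a feature of the sequence only, and no factor's binding was measured.

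Growth signals to the tendon cells were mixed. Igf1, insulin-like growth factor 1, had 7984 and 13344 reads, a ratio of 1.60 (1.56 to 1.65). Igfbp2, which binds IGFs, had 49 and 153 reads, a ratio of 2.99 (2.16 to 4.22), and was the 1 gene of the 10 IGF genes analysed past a limit. In the TGF-β and BMP list, 3 of 27 genes were higher and 3 lower. Id1 and Id3, direct targets of BMP signals, had ratios of 1.78 (1.60 to 1.98) and 1.81 (1.58 to 2.08), and the BMP antagonist Grem1 one of 1.79 (1.62 to 1.99). The ligand gene Bmp2 was lower, with a ratio of 0.525. The receptor genes Tgfbr1, Tgfbr2, Tgfbr3 and Bmpr1a had ratios from 0.932 to 1.16, and the ligand genes other than Bmp2, namely Tgfb1, Tgfb2, Tgfb3, Bmp4, Bmp6 and Inhba, had ratios from 0.998 to 1.26.

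Rspo3, a secreted enhancer of Wnt signals, had 128 and 45 reads, a ratio of 0.337 (0.234 to 0.476). It was the 1 of 12 Wnt genes past a limit. The inhibitor Wif1 had a ratio of 1.55 and Dkk3 one of 1.35, and Axin2 and Nkd2 both had 1.25. Of the 12 genes, 10 had a ratio above 1, 7 intervals lay above 1 and 1 below, and the median log2 ratio was 0.31. In cartilage genes, Hapln1, which links aggrecan to hyaluronan, had 1046 and 1991 reads, a ratio of 1.82 (1.69 to 1.97), and was the 1 of 10 past a limit. Acan, Col2a1 and Sox9 had ratios of 1.29, 0.814 and 0.727. None of the 5 Hedgehog genes, the 26 integrins and basement membrane genes, the 15 elastic fibre genes, the 16 matrix proteases and inhibitors or the 12 sheath and progenitor markers analysed was past a limit.

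Genes of dividing cells were above their Control level in nearly all cases. Plk1, a kinase that drives entry into mitosis and had the highest ratio of all named genes, had 16 reads in Control and 92 in ScxHt, a ratio of 5.51 (3.22 to 10.04). Cdk1, the mitotic cyclin-dependent kinase, had 25 and 116 reads, a ratio of 4.44 (2.87 to 7.15). The checkpoint kinase Bub1 had 24 and 86 reads, a ratio of 3.43 (2.16 to 5.64), and its relative Bub1b had 65 and 170, a ratio of 2.50 (1.87 to 3.39). These counts are small, and their intervals are wide. Mki67, the proliferation antigen, had 1520 and 2776 reads, a ratio of 1.75 (1.64 to 1.86).

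Of 24 mitosis genes analysed, 14 were higher and none lower, 21 had the whole interval above 1, and the median log2 ratio was 0.79. The lowest was Spag5 at 1.17, so that no member was below its Control level. In DNA replication, 10 of 29 genes were higher and none lower, 26 had the interval above 1, and the median log2 ratio was 0.59. Clspn (claspin), which relays replication stress to Chek1, had 66 and 219 reads, a ratio of 3.18 (2.40 to 4.25). Cdc45, a part of the replicative helicase, had 35 and 90 reads, a ratio of 2.46 (1.65 to 3.75), and thymidine kinase Tk1 had 44 and 99, a ratio of 2.15.

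Replication-dependent histones, which are made in S phase, passed the minimum for 29 of 69 genes. Of these, 5 were higher and none lower, led by the linker histones Hist1h1a (29 and 85 reads, a ratio of 2.81) and Hist1h1b (63 and 164 reads, a ratio of 2.49), and the median log2 ratio was 0.59. The 1 member with a ratio below 1 was Hist1h2be, with 132 and 107 reads and a ratio of 0.776 (0.596 to 1.01). Many histone genes are near copies of each other, and reads may have been divided among them. Skp2, which marks cell cycle inhibitors for degradation and was outside these lists, had 22 and 88 reads, a ratio of 3.83 (2.38 to 6.42). Which cells of the tendon carried these transcripts was not measured. In bulk RNA, more cells of a type and more RNA per cell cannot be told apart.

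The Cdk1 promoter is given as an example of the sequence that most mitosis genes shared. It holds the cell cycle homology region (CHR, TTTGAA) at 66 to 71 and at 10 to 15 bases before the start and the CCAAT box (here ATTGG, on the other strand) at 76 to 80 and 44 to 48, all in capitals, at chr10:69352913-69353112 (-).
Cdk1: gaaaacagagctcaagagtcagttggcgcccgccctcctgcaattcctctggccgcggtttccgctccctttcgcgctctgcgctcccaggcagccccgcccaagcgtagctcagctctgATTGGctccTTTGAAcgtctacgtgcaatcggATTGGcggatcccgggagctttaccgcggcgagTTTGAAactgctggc
The CHR letters were found on either strand in 16 of 21 mitosis genes with a promoter and in 13.8% of genes analysed with one. They were in 17.9% of all windows. CCAAT was found in 17 of the 21, in 42.5% of genes analysed with a promoter and in 37.4% of all windows. For the 25 replication genes with a promoter, 10 held GCGGGAA, a form of the E2F motif. It was in 9.76% of genes analysed with a promoter and in 4.60% of all windows.

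**Figure D3:**
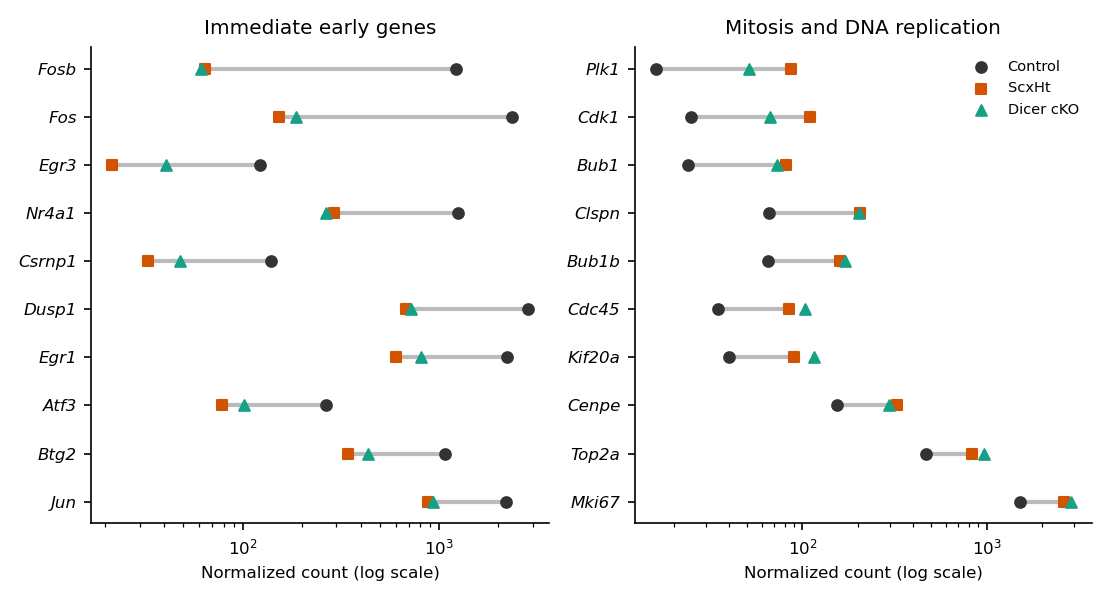
Normalized counts (horizontal axis, log scale, size factors over 3 libraries) of 10 immediate early genes (left) and 10 genes of mitosis and DNA replication (right) in Control (circles), ScxHt (squares) and Dicer cKO (triangles), with a grey line between Control and ScxHt. Control is the highest library for each immediate early gene shown and the lowest for each gene on the right.

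Immediate early genes gave the lowest ratios among genes with a symbol. These genes are induced within minutes by growth factors, stress or load and encode transcription factors and feedback proteins. Fosb, on chromosome 7 from 19302696 to 19310051, had 1226 reads in Control and 68 in ScxHt, a ratio of 0.0531 (0.0410 to 0.0679). Fos had 2355 and 162 reads, a ratio of 0.0659 (0.0558 to 0.0773). Their Dicer cKO counts were 59 and 178 reads, close to those of ScxHt, so that Control was the library that stood apart.

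The nuclear receptor Nr4a1 had 1251 and 308 reads, a ratio of 0.236 (0.207 to 0.267), and 254 reads in Dicer cKO. Dusp1, a phosphatase that ends MAP kinase signals, had 2832 and 720 reads, a ratio of 0.243 (0.224 to 0.264), and 686 in Dicer cKO. The factors Egr3 (123 and 23 reads) and Csrnp1 (140 and 35 reads) had ratios of 0.179 and 0.239. Of 33 members analysed, 20 were lower and 1 was higher, 30 had their interval below 1, and the median log2 ratio was -0.84. The member that went the other way was Gadd45b, a stress-induced growth arrest gene, with 22 and 87 reads, a ratio of 3.79 (2.35 to 6.35), and 29 reads in Dicer cKO. The second was Ctgf, with 25891 and 30244 reads and a ratio of 1.12.

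Feedback inhibitors of ERK signalling, which these stimuli also induce, were partly low. Spry1 had 416 and 199 reads, a ratio of 0.458 (0.385 to 0.544), and Dusp6 and Spry4 had ratios of 0.545 (0.485 to 0.612) and 0.558 (0.507 to 0.613). These were the 3 of 13 genes below the limit, and Fgfr1, Fgf2 and Spred1 had ratios of 0.941, 1.07 and 0.943. Of the glucocorticoid and fasting genes, Errfi1 had 2312 and 910 reads, a ratio of 0.377, Sgk1 2217 and 1013, a ratio of 0.438, and Cebpd 770 and 399, a ratio of 0.496. The chaperone of the glucocorticoid receptor, Fkbp5, was higher instead, with 751 and 1640 reads and a ratio of 2.09 (1.92 to 2.28), whereas Tsc22d3 and Zbtb16 both had 1.07. Ddit4, which is induced by stress and hypoxia, had 779 and 235 reads, a ratio of 0.289 (0.249 to 0.335), and was the 1 of 10 hypoxia genes past a limit. The clock gene Per1, which is also an immediate early gene, had a ratio of 0.549, and the other 17 of the 18 clock genes analysed lay between the limits.

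The Fos and Dusp1 promoters are shown as examples of low members with many reads. Capitals mark the core of the cyclic AMP response element, TGACG, or its reverse CGTCA and, in Fos, the TATA letters TATAAA. The stretches lie at chr12:85473690-85473889 (+) for Fos and chr17:26508473-26508672 (-) for Dusp1.
Fos: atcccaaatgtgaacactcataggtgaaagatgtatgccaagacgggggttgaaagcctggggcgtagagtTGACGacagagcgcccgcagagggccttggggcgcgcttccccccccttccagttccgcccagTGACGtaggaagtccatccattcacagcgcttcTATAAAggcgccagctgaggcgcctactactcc
Dusp1: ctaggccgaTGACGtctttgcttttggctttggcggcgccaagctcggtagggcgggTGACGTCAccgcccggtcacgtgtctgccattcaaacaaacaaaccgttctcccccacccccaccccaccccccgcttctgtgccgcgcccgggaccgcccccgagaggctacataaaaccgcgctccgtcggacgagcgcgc
The full palindrome TGACGTCA occurred in 4 of 26 immediate early genes with a promoter (Btg2, Dusp1, Maff and Ppp1r15a). It was in 3.63% of genes analysed with a promoter and in 1.79% of all windows. TATAAA occurred in 6 of the 26, in 8.87% of genes analysed with a promoter and in 13.6% of all windows. The serum response element was found in 1 of the 26, Zfp36, in 1.69% of genes analysed with a promoter and in 1.63% of all windows. The windows began 250 bases before the start, and immediate early genes without a promoter sequence here were not searched. An element farther upstream or in those genes would be missed. The count therefore cannot show that immediate early genes lack it.

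Skeletal muscle transcripts were plentiful in both tendons and differed by fibre type. The 5 muscle markers Acta1, Myh4, Ckm, Mylpf and Ttn together held 48949 CPM (counts scaled to the library total) in Control and 27381 in ScxHt, against 84702 in Dicer cKO. Ttn, which encodes the sarcomere spring titin, had 688745 and 329060 reads, a ratio of 0.458 (0.456 to 0.460). It made up most of the summed marker counts in Control and ScxHt, whereas Myh4, described below, went the other way. How much muscle each dissected tendon held was not measured.

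Genes of slow and oxidative fibres were low as a group. Myh7, the slow myosin heavy chain, had 40759 reads in Control and 14202 in ScxHt, a ratio of 0.334 (0.327 to 0.340). Its light chain Myl3 had 11251 and 3640 reads, a ratio of 0.310 (0.298 to 0.322), and the slow troponin Tnnc1 had 5019 and 1701, a ratio of 0.325 (0.307 to 0.343). Of 14 slow and developing muscle genes, 11 were lower, and the median log2 ratio was -1.18. The exception was Actc1, the cardiac actin that developing and regenerating muscle also uses, with 286 and 1272 reads, a ratio of 4.26 (3.74 to 4.86), and 1512 reads in Dicer cKO.

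Among fast muscle genes those of the fastest fibre type lay the other way. Myh4, the type IIB myosin heavy chain on chromosome 11 from 67238029 to 67260446, had 8125 reads in Control and 39836 in ScxHt, a ratio of 4.70 (4.59 to 4.81). Parvalbumin (Pvalb), the calcium buffer of these fibres, had 731 and 2460 reads, a ratio of 3.22 (2.97 to 3.51). Mybpc2, the fast myosin binding protein, had 1081 and 2776 reads, a ratio of 2.46 (2.29 to 2.64), and Actn3, the fast α-actinin, one of 1.79. Myh2 (type IIA) and Myh1 (type IIX) had ratios of 0.419 and 0.480 and the oxygen store myoglobin (Mb) one of 0.412. The fast muscle list of 23 genes thus held 4 higher and 10 lower members, with a median log2 ratio of -0.31. Its lower members included Mb, Ttn and the myosin binding protein gene Mybpc1 (ratio 0.445), which are not particular to fast fibres. The median of the list is therefore not that of fast fibre genes alone.

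Per length, Myh4 made up 7.33% of the RPKM of 6 myosin heavy chain genes in Control and 46.7% in ScxHt, while Myh7 made up 25.7% and 11.6%. In Dicer cKO, these shares were 25.2% and 16.8%. The summed RPKM of the 6 genes was 1134 in Control, 899 in ScxHt and 2200 in Dicer cKO. Myosin genes are similar in sequence, and reads that fit several of them may have been counted at one.

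**Figure D4:**
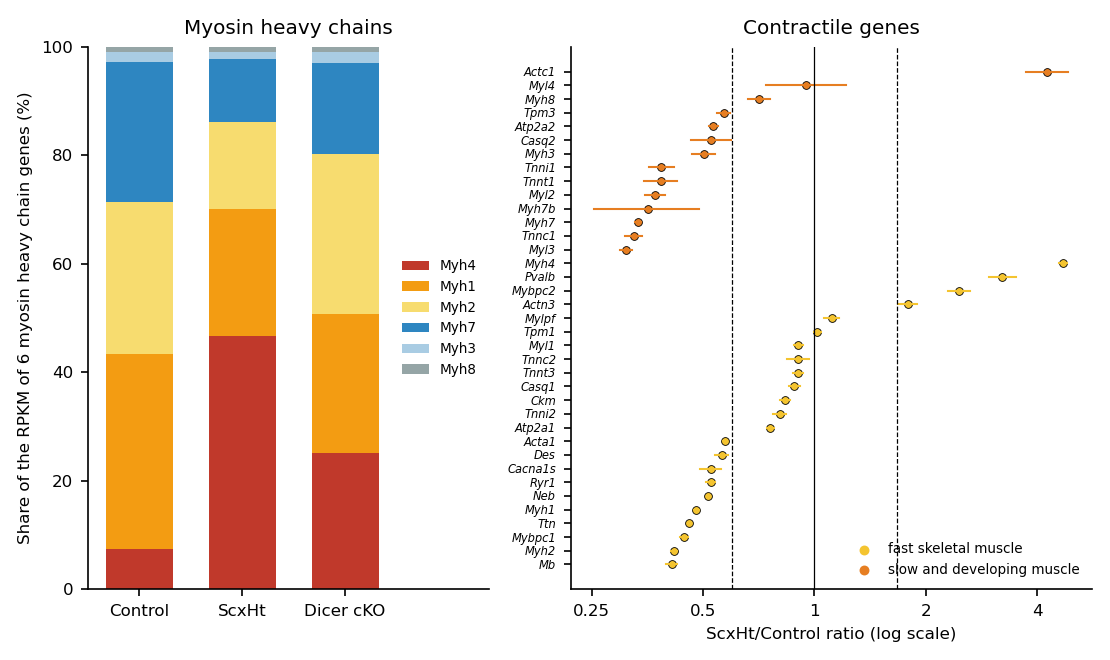
Left, the share of each gene in the summed RPKM of 6 myosin heavy chain genes (vertical axis, percent) in the 3 libraries. Right, ScxHt/Control ratios (horizontal axis, log scale) with 95% counting intervals of the fast and the slow and developing muscle genes, with dashed lines at the limits for higher and lower genes. Myh4 takes 7.33% in Control and 46.7% in ScxHt, and slow genes other than Actc1 lie below 1.

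Mitochondrial genes were on the low side with the oxidative fibre genes. The 13 protein genes of the mitochondrial genome had ratios from 0.435 (mt-Nd6) to 0.647 (mt-Co3), 7 of them below 0.60, with a median log2 ratio of -0.79. The most abundant, mt-Co1, had 259597 and 150203 reads, a ratio of 0.554 (0.551 to 0.558). Mitochondrially encoded genes held 3.46% of the counts in Control, 2.12% in ScxHt and 4.44% in Dicer cKO. The summed muscle markers, mostly Ttn in Control and ScxHt, had the same order, and the part of muscle in this difference was not tested. Of 20 nuclear genes of the respiratory chain, 3 were lower and 17 had their interval below 1, with a median log2 ratio of -0.45. The 2 lowest were the muscle forms Cox7a1 and Cox6a2, at 0.363 and 0.403. The glycolysis and glycogen list had 1 of 16 genes past a limit, the mitochondrial creatine kinase Ckmt2 at 0.434. Ckmt2 is not itself a glycolytic enzyme.

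Small RNA-seq of the same samples gave the muscle miRNAs. Mature sequences (RefSeq, GRCm38.p6) are given for the muscle miRNAs of the slow fibre loci and for miR-206, with the seed, bases 2 to 8, in capitals.
miR-206-3p: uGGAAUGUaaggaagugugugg
miR-208b-3p: aUAAGACGaacaaaagguuugu
miR-499-5p: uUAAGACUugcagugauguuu
Mir208b (chromosome 14 from 54975700 to 54975776) lies in an intron of Myh7 and Mir499 (chromosome 2 from 155622880 to 155622958) in an intron of Myh7b, and their seeds differ in the last base. Mir208b had 256 reads in Control and 137 in ScxHt, a ratio of 0.603 (0.486 to 0.745). Mir499 had 73 and 42 reads, a ratio of 0.648 (0.432 to 0.960). Their host genes Myh7 and Myh7b had ratios of 0.334 and 0.354, so all 4 transcripts lay below 1.

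Mir206 had 310922 and 134734 reads, a ratio of 0.488 (0.485 to 0.491), where 6.93% of 332 small RNA features with a mean normalized count above 15 were lower and 3.01% higher by the same limits. Lincmd1, the long noncoding RNA of the locus that holds Mir206 and Mir133b, was the third lowest gene with a symbol in RNA-seq, with 383 and 51 reads, a ratio of 0.128 (0.0933 to 0.171). Mir1a-1, one of 2 loci with nearly the same reads, had a ratio of 0.640 (0.635 to 0.645), and Mir133b had 288 and 243 reads, a ratio of 0.951 (0.798 to 1.13). Mir133a-1, also one of 2 loci with nearly the same reads, lay on the other side of 1, with 18421 and 18367 reads and a ratio of 1.12. With total counts in place of size factors, the ratio of Mir206 was 0.564 and that of Mir208b 0.697.

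Markers of macrophages were above their Control level. Csf1r, the receptor that macrophages need to survive, had 574 and 1113 reads, a ratio of 1.86 (1.68 to 2.06). The scavenger receptor Cd163 had 331 and 647 reads, a ratio of 1.87 (1.64 to 2.14), Lyz2 had 870 and 1641, a ratio of 1.81, and the chemokine receptor Ccr2 had 161 and 383, a ratio of 2.28 (1.89 to 2.76). Of 19 macrophage genes analysed, 14 were higher and none lower, and the median log2 ratio was 0.76. The list held 429 CPM in Control and 739 in ScxHt, and none of its 4 defining markers Csf1r, Adgre1, C1qa and Mrc1 was at 0. Cx3cr1, at 93 and 70 reads, was the only member whose interval lay below 1. Macrophages can divide and secrete matrix proteins, and their part in the differences of the cell cycle and matrix genes was not tested.

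MHC class II genes, which macrophages and other antigen-presenting cells use, lay with them. Cd74 had 330 and 600 reads, a ratio of 1.74, and H2-Ab1, H2-Aa and H2-Eb1 had ratios of 1.55, 1.59 and 1.66. Interferon-induced genes did not follow. Rsad2, Ifit1 and Irf7 had ratios of 0.497, 0.503 and 0.560, 4 of 16 genes were lower and 1 higher, and the median log2 ratio was -0.44. No neutrophil marker passed the minimum, and the highest of them had 22 reads in Control and 40 in ScxHt.

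Endothelial genes were on the low side. Flt1, a receptor of VEGF, had 1815 and 1080 reads, a ratio of 0.570 (0.528 to 0.615), and Robo4 had 532 and 317, a ratio of 0.571 (0.495 to 0.657). The junction protein Cdh5 had 2973 and 1899 reads, a ratio of 0.612, and Pecam1 2727 and 2114, a ratio of 0.743. Of 19 genes, 18 had a ratio below 1, 17 with the whole interval below 1 and 2 below the limit, and the median log2 ratio was -0.43. The list held 1146 CPM in Control and 869 in ScxHt. The exception, Mmrn1, which lymphatic endothelium also makes, had a ratio of 1.13. Among 13 genes of pericytes and smooth muscle, Synpo2 alone was lower, at 0.525, with Rgs5 at 0.603.

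Other cell types differed less. None of 16 adipocyte genes was past a limit, and Fabp4 and Adipoq had ratios of 0.961 and 1.33. Scd1, a fatty acid desaturase and one of the 10 most abundant genes of ScxHt, had 68739 and 88133 reads, a ratio of 1.23. Of 21 genes of Schwann cells, 10 passed the minimum, with Erbb3 at 0.420 and Cnp at 1.76 past the limits and Mbp at 0.899. The globin genes Hba-a1 and Hbb-bs had ratios of 0.975 and 0.792. Xist had 19886 and 20294 reads, and the 4 Y-linked genes Ddx3y, Kdm5d, Eif2s3y and Uty had 6 reads in all in Control and 1 in ScxHt. Epidermis markers other than Trp63 had at most 11 reads.

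**Figure D5:**
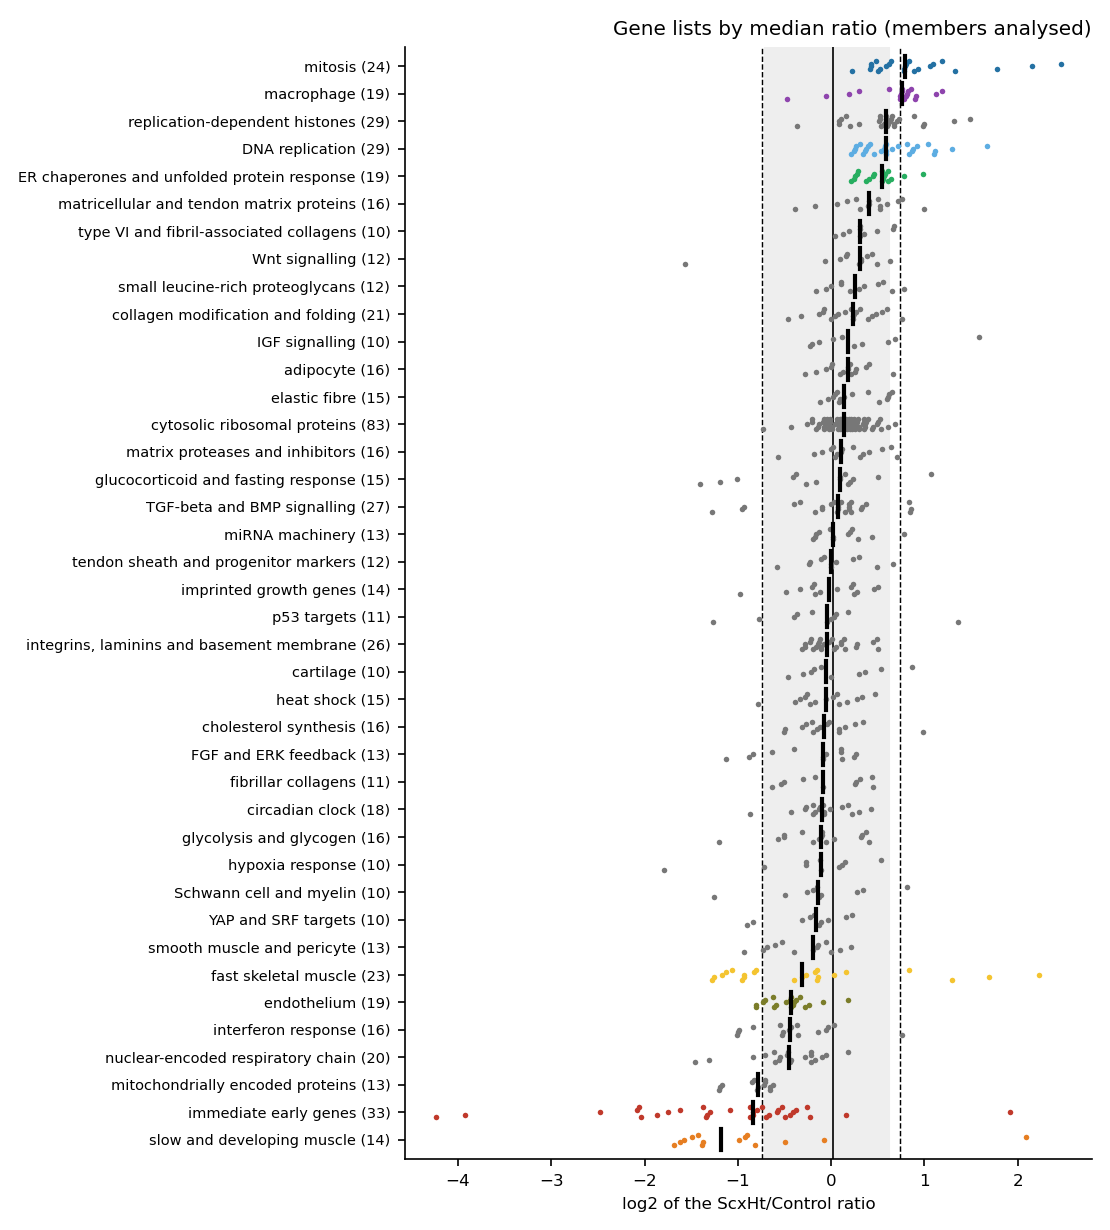
Log2 ScxHt/Control ratios (horizontal axis) of the members of each gene list with at least 10 genes analysed (points) and the list's median (black bar), ordered by the median, with the number of members in brackets. The grey band spans the 5th to the 95th percentile of all genes analysed, -0.71 to 0.62, the vertical line is their median, and dashed lines mark the limits for higher and lower genes. The medians run from -1.18 for slow and developing muscle to 0.79 for mitosis.

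Several genes with high ratios belonged to none of these groups. Npy2r, a receptor of neuropeptide Y, had 40 and 189 reads, a ratio of 4.53 (3.20 to 6.54), and 39 reads in Dicer cKO. Snai1, a transcription factor of mesenchymal cells, had 29 and 123 reads, a ratio of 4.06 (2.69 to 6.32), and 36 reads in Dicer cKO. For both, ScxHt stood apart from the other 2 libraries. Hmox1, which degrades heme, had 95 and 300 reads, a ratio of 3.03 (2.39 to 3.85), and 232 reads in Dicer cKO. The acute phase protein gene Orm1 (24 and 88 reads) and the glutathione transferase Gsta3 (23 and 80 reads) had ratios of 3.51 and 3.33.

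Among the low genes outside the lists, Slc15a2, a peptide transporter, had 237 and 41 reads, a ratio of 0.166 (0.116 to 0.232), and 104 reads in Dicer cKO. Lrrn1, a membrane protein, had 427 and 128 reads, a ratio of 0.287 (0.234 to 0.351), and 662 in Dicer cKO, and Mettl21c, a methyltransferase of muscle, had 448 and 135, a ratio of 0.289, and 591 in Dicer cKO. Bex1, Asb11 and St6galnac5 were also low, with 100 or fewer reads in Control and ratios of 0.248, 0.258 and 0.287. The imprinted noncoding RNA H19 had 11990 and 6343 reads, a ratio of 0.507 (0.491 to 0.522), and was the 1 of 14 imprinted genes past a limit. Of 13 genes of the miRNA machinery, Prkra, a partner of Dicer, was past the limit, with 90 and 161 reads and a ratio of 1.71 (1.32 to 2.24).

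With total counts in place of size factors, the median log2 ratio of all genes was 0.12 in place of 0.02. The balance of calls then turned, to 640 higher and 456 lower genes. This scaling moves the log2 ratio of every gene by the same 0.105. Distances of the lists from that median could therefore hardly change, and they are given as a description only. Mitosis lay 0.77 above the median of all genes, macrophage 0.74 and ER chaperones 0.53. Endothelium lay at -0.45 from it, immediate early genes at -0.86 and slow muscle at -1.20. None of the 19 endothelial genes was below 0.60 on that scale.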

How the data were processed

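RNA-seq and small RNA-seq were done on Achilles tendon RNA of 3 genotypes, with 1 library per genotype and assay. The authors sequenced paired-end RNA-seq libraries, aligned reads to GRCm38 (mm10) with TopHat and Bowtie2 and made the deposited read counts per gene with HTSeq; the versions, annotation and strand setting were not given in the sources used here. The deposited RPKM values (reads scaled by the authors to gene length and library size) were used only for ratios of levels between genes. Columns with the authors' comparisons were not used.

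Of 54189 lines, 463 that repeated an earlier line were dropped. Size factors were DESeq2 1.42.0 median-of-ratios values of the 2 libraries, and genes with a mean normalized count above 50 were kept (15 for small RNA). A ratio below 0.60, or above its inverse rounded to 2 decimals, was called. Intervals are 95% Clopper-Pearson intervals (scipy 1.17.1, pandas 2.3.3, numpy 2.4.6, Python 3.11.15), and figures were drawn with matplotlib 3.10.9. The alternatives were edgeR 4.0.16 TMM, total counts, other minimums, limits and a pseudocount (R 4.3.3). The calculation was checked on simulated data. The text names Scx, Bop1, Dicer1, the 15 highest and 15 lowest genes with a symbol and a whole interval past the limit, the 10 most abundant genes per library, and up to 8 members per list, first those past a limit and then the most abundant. Further list members were named after their values were seen. The genes and lists were chosen with earlier results of these data known. Some results are not reported here.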

Additional observations from a re-analysis of the deposited data

How the results depend on the processing

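No paired analysis was possible because each genotype has 1 library, and for the same reason no library could be left out. The counts of genes depended on the settings. The higher genes numbered 640 with total counts, 1223 with a mean normalized count above 10, 85 above 200, 5159 with no filter, 124 with limits of 2 and 0.5, and 73 with the whole interval past the limit. The lower genes numbered 1588, 283, 5496, 289 and 267 in the last 5 of these settings. Each change in these counts follows from how many genes enter, the limit or the scale. Total counts moved the median of all genes to 0.12. The median log2 ratio was then 0.36 for the small leucine-rich proteoglycans and -0.21 for the fast muscle list. The other 44 values of the main results differed from the reported ones by less than the counting interval or, for counts, by less than 1.5 times. Of 496 further values for 74 results, recomputed under settings added after the data were seen, 476 did so too. A further 19 moved by more, some up and some down, without a change of sign of the log2 ratio. Of 45 list medians, 15 changed sign under at least 1 setting, 12 of them with total counts, and all 15 had been within 0.14 of 0. These include the fibrillar collagens (-0.09 to 0.02 with total counts) and the glycolysis and glycogen list (-0.10 to 0.0006 with total counts). Genes with 50 to 100 normalized counts are the least precise, since their intervals are wide.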

Other observations

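Cytosolic ribosomal protein genes showed no member past a limit among 83 analysed, with 63 ratios above 1, 35 intervals above 1 and 7 below, and a median log2 ratio of 0.14. In fatty acid synthesis, 8 of 9 genes had their interval above 1, with a median of 0.21 and none past the limit. In cholesterol synthesis, Nsdhl, a sterol dehydrogenase, was the 1 of 16 past it, at 1.98. Of 11 p53 targets, 1 was higher and 2 were lower. Sesn2, a stress-induced regulator of growth, had a ratio of 2.56, Eda2r, a death receptor, one of 0.416 and Plk2, a kinase, one of 0.587. Of 10 YAP and SRF targets, Ankrd1 and Cyr61 had ratios of 0.537 and 0.561.

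Near the Scx locus, 115 genes analysed lay within 5 Mb, of which 3 were higher and 6 lower, 7.83% in all. Within 5 Mb of Dicer1, 1 of 48 genes was higher and 3 were lower, 8.33% in all. Over all genes analysed, 3.03% were higher and 4.71% lower, and 92.3% lay between the limits. Both local shares were near that background.

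The lowest ratios of all were those of Gm47283 and Gm21887, chosen after their values were seen. In Control, ScxHt and Dicer cKO, Gm47283 (chromosome Y, 90784738 to 90816464) had 513, 5 and 532 reads, and its ratio was 0.00934 (0.00302 to 0.0219). For Gm21887 (chromosome X, 170009659 to 170019281) the counts were 440, 7 and 440, and its ratio was 0.0152 (0.00609 to 0.0317). Both lie in the region that the X and Y chromosomes share, where copies share sequence.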
